A study of Mus musculus with 12 samples.

Results

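The insulin-like growth factor (IGF) genes of the kidney were followed as 10 transcripts: the ligand Igf1, the receptors Igf1r and Igf2r, and the binding proteins Igfbp1 to Igfbp7. They were found by their gene symbols among 19505 distinct symbols on Affymetrix Clariom S arrays, and each of the 10 had 1 probe set. Where a gene had several probe sets the rule took the one of highest mean signal, so here no measured value chose among them. The family itself was picked with earlier results of these data known, and its p-values are not independent evidence about the choice. The 12 whole-kidney samples formed 4 groups of 3: wild type on vehicle, Alport on vehicle, Alport on losartan, and Alport on metformin. All were labelled 16 weeks old. The Alport mice were hemizygous for a nonsense change of Col4a5 labelled G5X, which all 3 Alport groups shared. The product of Col4a5 is one of the collagen IV chains in the filter membrane of the glomerulus, and its loss leads to progressive kidney scarring. Losartan, an angiotensin II receptor blocker, was in the drinking water at 125 and later 250 µg/mL. Metformin, a biguanide glucose-lowering drug, was in the water at 2.5 and later 5 mg/mL. The labels' treatment text runs to week 20, past the stated age, and calls losartan co-administered, so groups follow the sample titles.

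IGF1 is a small secreted hormone that acts through the tyrosine kinase receptor encoded by Igf1r. Much of it in blood comes from the liver under growth hormone, and many tissues make their own. Igf2r encodes the cation-independent mannose 6-phosphate receptor, which carries lysosomal enzymes and clears IGF2. The proteins of Igfbp1 to Igfbp6 bind IGFs with high affinity, prolong or block their action, and differ in where they are made and which proteases cut them. Igfbp7 encodes a related protein with low affinity for IGFs, and its product in urine is used as a marker of acute kidney stress. Igfbp1 is known as a gene that insulin represses through FoxO transcription factors.

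Igfbp1 and Igfbp3 are shown by sequence because they had the smallest p-values of the family between the drugs and lie side by side: among coding genes of chromosome 11 each is the other's neighbour in RefSeq's GRCm38.p6 gene table. Igfbp2 and Igfbp5 are likewise neighbours on chromosome 1. The lines below hold the 250 bases before the RefSeq start of each gene, 5′ to 3′ on the gene's own strand, from GRCm38.p6: chr11:7197537-7197786 on the plus strand for Igfbp1 and chr11:7213924-7214173 on the minus strand for Igfbp3. Capitals mark CAAAACAA, the core of the insulin response sequence described for Igfbp1.
Igfbp1: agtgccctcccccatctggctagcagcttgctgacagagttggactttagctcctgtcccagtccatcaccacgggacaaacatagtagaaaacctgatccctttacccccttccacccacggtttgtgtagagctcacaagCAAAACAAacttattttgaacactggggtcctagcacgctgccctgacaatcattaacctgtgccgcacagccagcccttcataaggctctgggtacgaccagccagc
Igfbp3: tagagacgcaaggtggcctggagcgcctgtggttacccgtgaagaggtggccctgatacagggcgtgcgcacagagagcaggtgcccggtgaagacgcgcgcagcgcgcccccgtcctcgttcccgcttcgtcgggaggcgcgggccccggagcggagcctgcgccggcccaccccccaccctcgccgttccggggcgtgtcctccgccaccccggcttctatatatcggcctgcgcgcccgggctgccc
All 10 genes matched the RefSeq promoter table, with 11 windows in all since Igfbp2 had a pair of starts. CAAAACAA, searched on both strands, occurred in the Igfbp1 window alone among the 11, ending 100 bases before the start. It occurred in 2.21% of the 32851 windows of the same length in the table. Since CAAAACAA was described for Igfbp1, its match there was known beforehand and is no finding of the search. GTAAACA, another sequence bound by FoxO proteins, occurred in 0 of the 11 windows and in 3.17% of all windows. TATAAA occurred in the windows of Igfbp4, where it ended 22 bases before the start, and of Igfbp6 on the opposite strand, and in 12.4% of all windows. No match overlapped another. A match says only that these letters are present.

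Signals were deposited in log2 form, where 1 unit is a doubling of signal, and run from 2.3 to 19.88. The kidney markers Slc34a1 of the proximal tubule and Umod of the thick ascending limb read from 18.4 to 19.19 and from 18.51 to 18.94 over the 12 samples. Col4a5 read from 5.06 to 5.83 in wild type and from 4.09 to 4.97 in the 9 Alport samples, without overlap. Pairs of samples correlated across genes, which are no independent replicates, at 0.990 to 0.994 inside a group and 0.975 to 0.993 across groups. Separate mice are not named as the source of the samples, so the p-values measure only the scatter of these samples, and that scatter may be technical. Changes below are differences of mean log2 value with their standard error (SE, n = 3 per group) from a limma fit of all 22206 probe sets and 12 samples, and adjusted p-values are Benjamini-Hochberg over all probe sets. A transcript is said to have risen or fallen where that adjusted p was under 0.05. In whole-kidney RNA, fewer cells of a type and less RNA per cell cannot be told apart.

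In vehicle-treated Alport kidneys the ligand Igf1 and the binding proteins Igfbp2 and Igfbp7 rose against wild type, and Igfbp3 and the receptor Igf1r fell. These were 5 of the 10 members, where 16.1% of all probe sets were called in this comparison. The 3 that rose stand beside 8.43% of probe sets called higher, and the 2 that fell beside 7.71% called lower. The median log2 change of the 10 was 0.10, against -0.03 for all probe sets, and the median size of change regardless of sign was 0.53 against 0.24. For 9 of the 10 the 3 Alport vehicle samples lay entirely above or below the 3 wild type samples, which held for 29.7% of all probe sets. Igfbp4 was the exception. Omission of any single sample lowered the count of members called, to 3 or 4. It was 3, with Igf1r and Igfbp7 lost, without Alport vehicle sample 1 or 3 or wild type sample 3.

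Igf1 read 9.26, 9.27 and 9.39 in wild type, 10.94, 10.72 and 11.69 in Alport vehicle, 9.98, 9.63 and 9.19 under losartan, and 10.23, 10.08 and 9.26 with metformin. Every Alport vehicle sample was above every sample of the other groups, and those overlapped one another. Igf1 rose 3.51-fold in Alport vehicle against wild type (log2 1.81 ± 0.28, limma adjusted p = 0.000279). It fell by 1.52 ± 0.28 on the log2 scale with losartan against Alport vehicle (limma adjusted p = 0.00404). With metformin it fell by 1.26 ± 0.28 (limma adjusted p = 0.017), and this call was lost without Alport vehicle sample 3 (log2 -0.97, adjusted p = 0.0652), without metformin sample 3 (-0.96, 0.0893) and in a fit of only these groups (0.0585). Losartan-treated Alport and wild type kidneys differed by 0.29 ± 0.28 (95% interval -0.30 to 0.88, limma adjusted p = 0.788), and metformin-treated and wild type kidneys by 0.55 ± 0.28 (-0.04 to 1.14, 0.314). Neither difference passed the test, and the intervals still allow an excess over wild type. The drugs differed from each other by 0.26 (95% interval -0.33 to 0.85).

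Markers of fibroblasts, smooth muscle and macrophages are set beside Igf1. Over all probe sets, 8.43% were called higher in Alport vehicle, 4.11% lower with losartan and 2.27% lower with metformin. Of 7 measured fibroblast and myofibroblast markers, 7 rose in Alport vehicle, 7 fell with losartan and 7 fell with metformin. The log2 of their summed signal was 11.60 to 11.89 in wild type, 15.37 to 15.79 in Alport vehicle, 13.46 to 14.12 with losartan and 13.54 to 14.25 with metformin. Of 4 measured smooth muscle markers, 4 rose in Alport vehicle, 4 fell with losartan and 4 fell with metformin. Their summed signal was 10.65 to 11.57, 13.99 to 14.77, 12.03 to 12.635 and 12.09 to 12.99 in the same order of groups. Of 5 macrophage markers, 4 rose in Alport vehicle, 3 fell with losartan and 0 fell with metformin by limma, where 2 had an unadjusted p under 0.05. Their summed signal was 10.71 to 10.75, 12.58 to 14.40, 11.42 to 11.75 and 11.81 to 13.10 in the same order of groups, so that the metformin samples overlapped Alport vehicle. No listed marker reads 0 on these arrays, and the part of these cells in the Igf1 result was not tested.

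Igfbp3, whose product is the main IGF carrier in blood, was placed at separate levels in wild type, losartan and the other groups. It read 12.88, 13.35 and 13.44 in wild type, 11.01, 11.21 and 11.35 in Alport vehicle, 12.35, 12.13 and 11.87 under losartan, and 10.74, 11.13 and 11.32 with metformin. The wild type samples were highest, the losartan samples lay between, and the Alport vehicle and metformin samples overlapped at the bottom. Igfbp3 fell by 2.03 ± 0.20 in Alport vehicle against wild type, a 4.09-fold difference (limma adjusted p = 7.4e-06), and ranked 81 of 22206 probe sets by p. With losartan it rose by 0.93 ± 0.20 against Alport vehicle (limma adjusted p = 0.0114, and 0.0597 without Alport vehicle sample 1). It stayed 1.11 ± 0.20 lower than in wild type (log2 -1.11, limma adjusted p = 0.0224). With metformin Igfbp3 was at -0.13 ± 0.20 against Alport vehicle (95% interval -0.56 to 0.30, limma adjusted p = 0.819) and fell by 2.16 ± 0.20 against wild type (2.36e-05).

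The losartan remainder in Igfbp3 against wild type lost its call when any of 4 samples was omitted: wild type sample 2 (adjusted p = 0.0971) or 3 (0.15), or losartan sample 2 (0.0769) or 3 (0.107). Metformin and losartan samples did not overlap in Igfbp3, which was 1.05 ± 0.20 lower with metformin (log2 -1.05, 95% interval -1.48 to -0.62). This difference ranked 17 of 22206 by p but did not pass over all probe sets (limma adjusted p = 0.116). It passed without metformin sample 3 (0.0291) and with a trended robust variance prior (0.043).

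Endothelial markers, fixed as a list because kidney vessels are among the cells sampled, were mixed beside Igfbp3. Of 8 measured, 1 rose and 1 fell in Alport vehicle against wild type, 2 rose under losartan, and 1 fell with metformin. Over all probe sets, 8.43% were called higher and 7.71% lower in Alport vehicle, 3.79% higher under losartan and 2.27% lower with metformin. The median log2 change of the 8 was 0.235, -0.02 and -0.28 in that order, and the genes named next do not stand for the list. The genes called in Alport vehicle were Kdr, a receptor of vascular endothelial growth factor, which fell, and Emcn, which rose. With losartan Kdr and Ehd3 rose, and with metformin Pecam1 fell. The log2 of the summed signal of the 8 was 14.18 to 14.27 in wild type, 14.24 to 14.68 in Alport vehicle, 14.31 to 14.515 with losartan and 13.85 to 14.18 with metformin. Proximal tubule markers fell in Alport vehicle in 8 of 8 cases, and 4 rose with losartan and 2 with metformin. Their summed signal was 20.54 to 20.60, 19.79 to 20.04, 20.38 to 20.45 and 20.20 to 20.37 in that order. The part of either cell type in the Igfbp3 result was not tested.

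**Figure D1:**
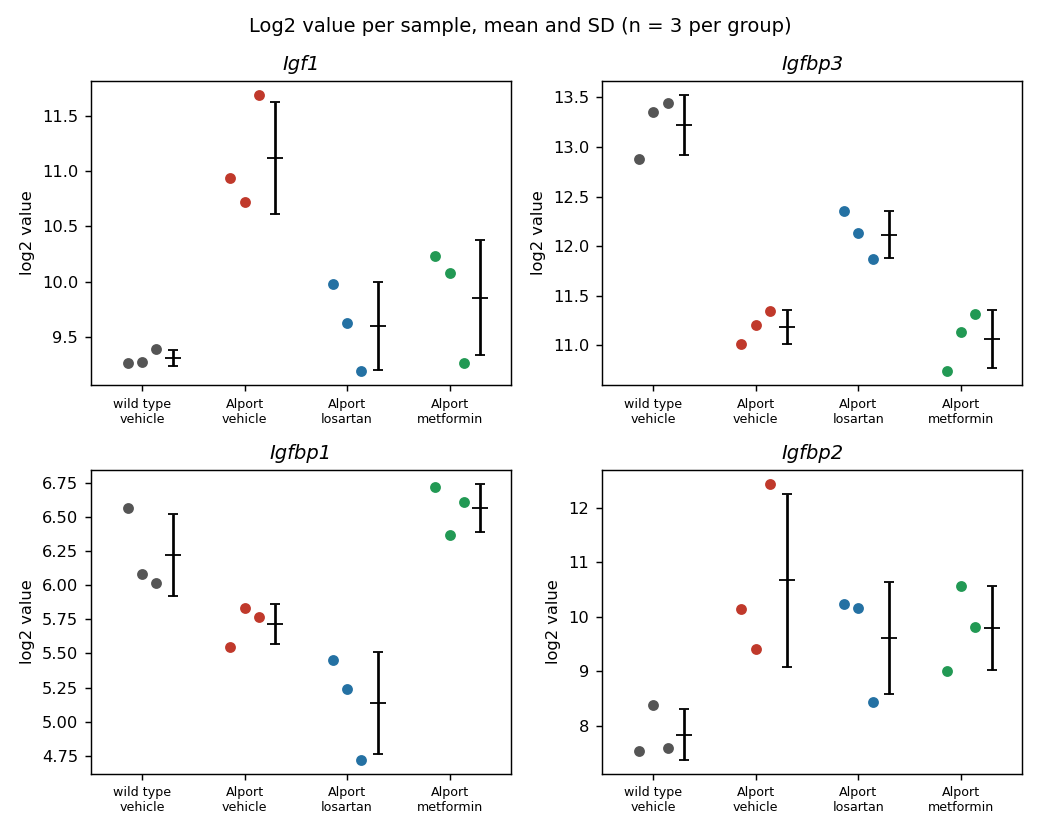
Log2 value (vertical axis) of Igf1, Igfbp3, Igfbp1 and Igfbp2 in each of 12 samples, by group, with the mean and SD (n = 3) to the right of the points. The Igfbp3 losartan points (11.87 to 12.35) lie between wild type (12.88 to 13.44) and Alport vehicle (11.01 to 11.35), and the Igfbp1 metformin points (6.37 to 6.72) lie above the losartan points (4.72 to 5.45).

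Igfbp1 was the single member called between the drugs. It read 6.57, 6.08 and 6.02 in wild type, 5.55, 5.83 and 5.77 in Alport vehicle, 5.45, 5.24 and 4.72 under losartan, and 6.72, 6.37 and 6.61 with metformin. The metformin samples were above all Alport vehicle samples and the losartan samples below all of them, and the metformin samples overlapped wild type. Metformin against losartan gave a 2.69-fold higher signal (log2 1.43 ± 0.21, 95% interval 0.99 to 1.87, limma adjusted p = 0.0116). Only 0.045% of probe sets, 10 of 22206, were called in this comparison (0.018% higher and 0.027% lower), and Igfbp1 was the 1 member among them. The groups did not overlap for 4 members (Igfbp1, Igfbp3, Igfbp4 and Igfbp7), against 13.5% of all probe sets. The other 9 members did not pass. The call of Igfbp1 was lost without losartan sample 2 (adjusted p = 0.061) or 3 (0.059), without metformin sample 1 (0.0808) and in a fit of the drug groups alone (0.0691), while the change stayed between 1.22 and 1.59 whichever sample was left out.

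Against Alport vehicle, Igfbp1 rose with metformin by 0.85 ± 0.21 (limma adjusted p = 0.0281). The call did not hold without Alport vehicle sample 1 (0.117) or 3 (0.0574) or metformin sample 1 (0.0843) or 3 (0.0999). With losartan its change was -0.58 ± 0.21 (95% interval -1.02 to -0.14, limma adjusted p = 0.107), which did not pass. Against wild type it fell with losartan by 1.09 ± 0.21 (limma adjusted p = 0.0251). The p was 0.0699 to 0.118 when any wild type sample or losartan sample 2 or 3 was left out. Alport vehicle and wild type differed by -0.51 ± 0.21 (limma adjusted p = 0.119), and this difference passed when each sample was centred on its median (0.0421) and after a new quantile normalization (0.0477). Metformin and wild type differed by 0.34 ± 0.21 (95% interval -0.10 to 0.78).

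The signal of Igfbp1 was dim, below the median probe set of its own sample in 6 of 12 samples and at the 34.1 to 56.3 percentile of each sample. Igfbp1 is best known as a liver product. Among 4 hepatocyte markers 0 passed between metformin and losartan by limma, where 1 had an unadjusted p under 0.05. Against Alport vehicle 2 rose (Alb and Serpina1a) and 1 fell (Ttr) with metformin, and 1 rose (Alb) and 1 fell (Ttr) with losartan. Of all probe sets, 2.67% were called higher and 2.27% lower with metformin, and 3.79% and 4.11% with losartan. Over the 12 samples Alb read 7.64 to 9.98, Apoa1 3.59 to 4.49, Serpina1a 12.08 to 13.02 and Ttr 12.79 to 15.53. The log2 of their summed signal was 14.29 to 14.82 in wild type, 15.26 to 15.67 in Alport vehicle, 14.32 to 14.85 under losartan and 13.79 to 14.28 under metformin. The sum adds unlogged signals, so the bright Ttr and Serpina1a set it. Liver was not sampled, and the sum is not read as a level of hepatocytes. The part of the hepatocyte markers in the Igfbp1 result was not tested.

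Igfbp2, a binding protein of epithelia and of fetal tissue, had the widest spread. It read 7.55, 8.38 and 7.60 in wild type, 10.15, 9.41 and 12.44 in Alport vehicle, 10.24, 10.16 and 8.43 under losartan, and 9.01, 10.56 and 9.81 with metformin. Every Alport sample of any treatment was above every wild type sample, and the 3 Alport groups overlapped. Igfbp2 rose 7.08-fold in Alport vehicle against wild type (log2 2.82 ± 0.62, limma adjusted p = 0.00453). Under a trended robust prior that p was 0.0532. Without Alport vehicle sample 3, the highest sample, the log2 change was 1.94 (adjusted p = 0.017). Against Alport vehicle it was at -1.06 ± 0.62 with losartan and -0.87 ± 0.62 with metformin (limma adjusted p = 0.369 and 0.512), which did not pass, and without that sample at -0.17 and 0.01. Against wild type the treated groups were at 1.77 ± 0.62 with losartan (0.268) and 1.95 ± 0.62 with metformin (0.0918, and 0.0113 in a fit of only these groups).

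Uroplakin genes, markers of the urothelium that lines the renal pelvis, had their highest summed signal in the same Alport vehicle sample 3. The log2 of their summed signal was 9.34 there, 7.36 and 7.50 in the other Alport vehicle samples, 6.95 to 7.28 in wild type, 7.36 to 8.01 with losartan and 7.17 to 7.25 with metformin. The sum leans on Upk1a, which reached the highest signal of the 4 (5.89 to 8.78 over the 12 samples). A peak in Alport vehicle sample 3 was not particular to urothelium. That sample was also highest of the 12 in summed macrophage (14.40), T cell (8.73), fibroblast (15.79), smooth muscle (14.77) and endothelial (14.68) markers. It had the lowest array weight (0.71). Of 4 uroplakins 1 (Upk1b) rose in Alport vehicle and 1 (the same) fell with metformin. Of all probe sets 8.43% were called higher in the first comparison and 2.27% lower in the second. Markers of collecting duct principal cells had a summed signal of 13.69 to 14.64 in wild type, 15.03 to 15.41 in Alport vehicle, 14.59 to 14.76 with losartan and 15.11 to 15.92 with metformin, with 1 of 5 rising in Alport vehicle. That sum mostly follows Aqp2 (12.79 to 15.72, with Aqp3 next at 11.14 to 12.57). The median log2 change of the 5 markers in Alport vehicle was 0.16. The part of these cells in the Igfbp2 result was not tested.

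Igfbp7 was among the brightest probe sets, at the 99.8 to 99.9 percentile of every sample, near the top of the measured range. It read 18.01, 18.29 and 18.07 in wild type, 18.81, 18.53 and 18.68 in Alport vehicle, 18.18, 18.18 and 18.21 under losartan, and 18.47, 18.33 and 18.40 with metformin. All Alport vehicle samples were above all others, the metformin samples were next, and the losartan samples lay within the wild type range. Igfbp7 rose by 0.55 ± 0.15 in Alport vehicle against wild type (limma adjusted p = 0.0205). The call was lost without wild type sample 1 (0.0792) or 3 (0.068) or Alport vehicle sample 1 (0.0823) or 3 (0.0512), after centring on the median (0.0667) and in a fit of only these groups (0.0638). Losartan gave -0.48 ± 0.15 against Alport vehicle (limma adjusted p = 0.0657), which passed with a trended robust prior (0.00862) and after a new quantile normalization (0.0363). Metformin gave -0.27 ± 0.15 (0.369).

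The remaining binding proteins did not pass in any of the 6 comparisons between groups. Igfbp4, which restrains IGF1 until proteases cut it, ranged from 14.02 to 14.79, and its largest difference was -0.33 ± 0.19 (metformin against wild type, limma adjusted p = 0.38). Igfbp5, which binds matrix and bone mineral, ranged from 13.86 to 14.87 and was at 0.42 ± 0.21 in Alport vehicle against wild type (0.214). Igfbp6, which prefers IGF2, read from 5.09 to 5.29 in wild type, 5.45 to 5.84 in Alport vehicle, 5.14 to 6.13 with losartan and 5.58 to 6.03 with metformin. Its difference of 0.68 ± 0.23 between metformin and wild type had a limma adjusted p of 0.122. Igfbp6 lay below the median probe set in 10 of 12 samples. A difference of 0.5 lies within the 95% interval for Igfbp5 and Igfbp6 in Alport vehicle against wild type, so these data do not show that they stayed level.

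Of the receptors, Igf1r read 12.53, 13.05 and 13.03 in wild type, 12.19, 12.37 and 12.44 in Alport vehicle, 12.44, 12.13 and 12.35 under losartan, and 12.46, 12.34 and 12.29 with metformin. All 9 Alport samples were below all 3 wild type samples, and the Alport groups overlapped. Igf1r fell by 0.54 ± 0.18 in Alport vehicle (limma adjusted p = 0.0473), a call that held without wild type sample 1 (0.0157) and was lost when any other single sample was omitted (0.0648 to 0.166), with the replicate number as a block (0.069), after a new quantile normalization (0.163) and in a fit of only these groups (0.1). Against Alport vehicle it was at -0.03 ± 0.18 with losartan and 0.03 ± 0.18 with metformin, with 95% intervals of -0.40 to 0.35 and -0.34 to 0.40. Against wild type it was at -0.56 ± 0.18 with losartan (limma adjusted p = 0.203) and -0.51 ± 0.18 with metformin (0.126). Neither passed.

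Igf2r read 12.28, 12.29 and 12.26 in wild type, 11.53, 12.11 and 11.91 in Alport vehicle, 12.22, 12.30 and 12.57 under losartan, and 12.27, 12.61 and 12.39 with metformin. The Alport vehicle samples were below all others, and the other groups overlapped. Its differences were -0.43 ± 0.18 for Alport vehicle against wild type (limma adjusted p = 0.127), 0.51 ± 0.18 with losartan (0.0964) and 0.57 ± 0.18 with metformin (0.0788) against Alport vehicle. None passed, although the first passed after centring on the median (0.0409), both drug differences passed without Alport vehicle sample 2 (0.0458 and 0.0416), and that with metformin passed with a trended robust prior (0.0487).

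**Figure D2:**
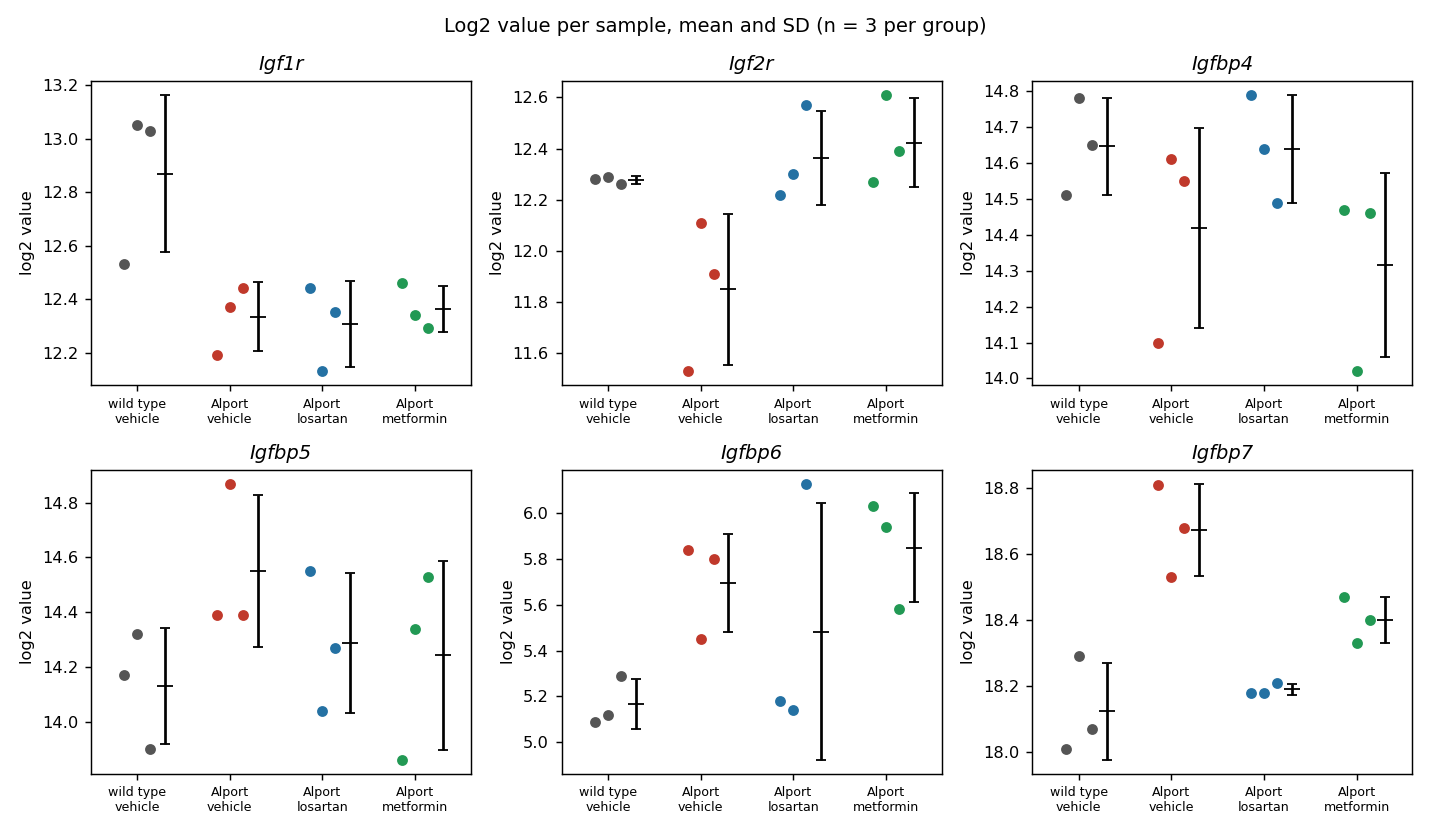
Log2 value (vertical axis) of the receptors Igf1r and Igf2r and of Igfbp4, Igfbp5, Igfbp6 and Igfbp7 in each of 12 samples, by group, with the mean and SD (n = 3) to the right of the points. Igf1r is below wild type (12.53 to 13.05) in all 9 Alport samples (12.13 to 12.46), while Igf2r is lowest in Alport vehicle (11.53 to 12.11).

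With losartan against Alport vehicle, 1 member rose (Igfbp3) and 1 fell (Igf1), 2 of 10 where 7.9% of probe sets were called (3.79% higher and 4.11% lower). The groups did not overlap for 5 of 10, against 23.1% of all probe sets. With metformin against Alport vehicle, 1 rose (Igfbp1) and 1 fell (Igf1), 2 of 10 where 4.94% were called (2.67% higher and 2.27% lower). The groups did not overlap for 4 of 10, against 20.5%. Both comparisons use the same Alport vehicle samples, so they are not independent of each other. Against wild type, Igfbp1 and Igfbp3 fell with losartan, 2 of 10 where 0.549% of probe sets were called (0.401% higher and 0.149% lower). The groups did not overlap for 4 of 10, against 16.7%. With metformin Igfbp3 fell, 1 of 10 where 4.18% were called (2.7% higher and 1.48% lower), and 6 of 10 did not overlap, against 22.8%.

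**Figure D3:**
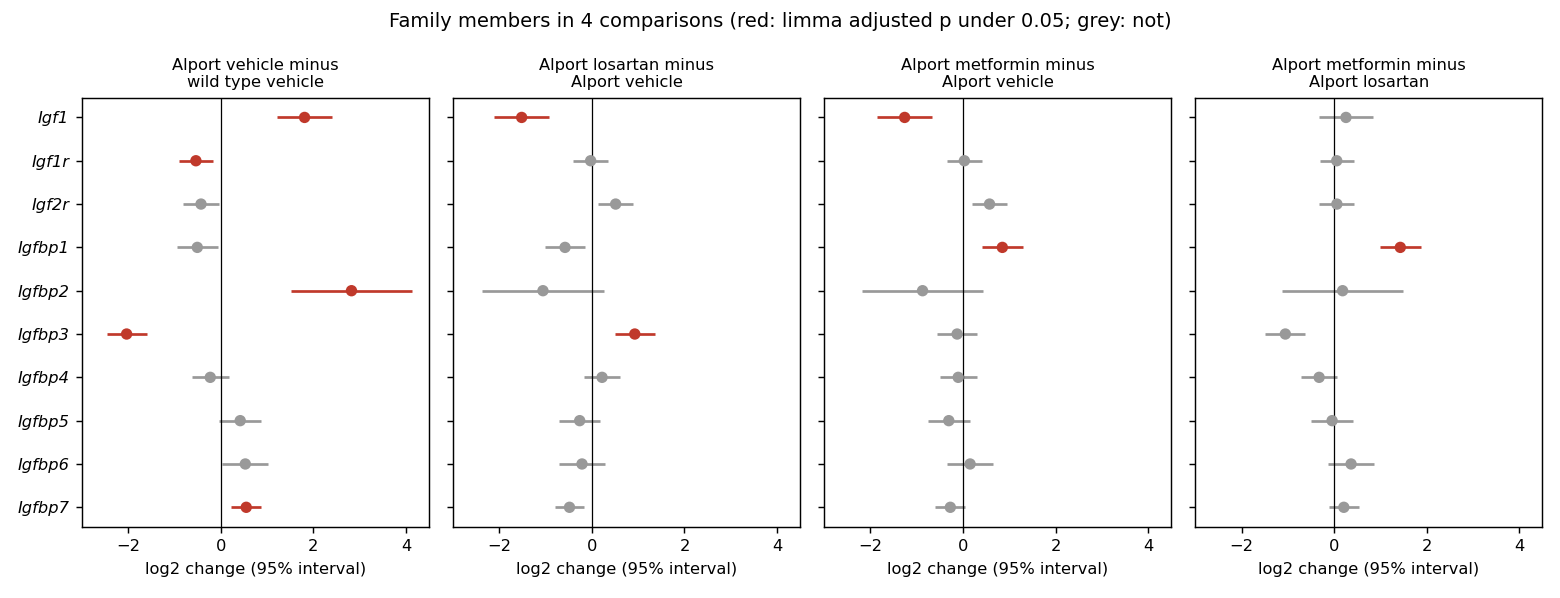
Log2 change of each of the 10 members with its 95% interval (horizontal axis) in 4 comparisons of group means, red where the limma adjusted p was under 0.05 and grey elsewhere. Igf1 is on opposite sides of 0 in the Alport comparison (1.81) and in both drug comparisons (-1.52 and -1.26), while Igfbp3 moved with losartan (0.93) and is near 0 with metformin (-0.13).

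Other genes of the pathway were read from a list of 41, of which 36 were measured. The list includes Pdk1, which encodes a pyruvate dehydrogenase kinase and lies outside the pathway. In Alport vehicle against wild type 7 rose and 8 fell, with a median change of -0.14, beside 8.43% of all probe sets called higher and 7.71% lower. With losartan against Alport vehicle 3 rose and 3 fell, beside 3.79% and 4.11%, and with metformin 1 rose and 0 fell, beside 2.67% and 2.27%. Between the drugs 0 of 36 passed by limma, where 0.045% of all probe sets did and 3 of 36 had an unadjusted p under 0.05, and nothing is read from that count. Of the ligand and carrier genes, Igf2 was at 0.31 ± 0.19 in Alport vehicle (limma adjusted p = 0.34), while Igfals, whose product joins IGF1 and IGFBP3 in the large complex of blood, fell by 0.74 ± 0.21 (0.0226) and rose with losartan by 0.77 ± 0.21 (0.0338). The fall of Igfals was lost on omission of 2 of the 6 samples, and its rise on omission of 4 of 6 and in a fit of only those groups. Igfals was dim in Alport vehicle, at 5.92 to 6.39, where the sample medians ran from 5.99 to 6.065.

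Proteases of binding proteins and their inhibitors had 2 of 5 rising in Alport vehicle and 0 falling. Of all probe sets 8.43% were called higher and 7.71% lower in that comparison. Pappa, a metalloproteinase that cuts IGFBP4 and frees IGF1, rose by 1.77 ± 0.30 (limma adjusted p = 0.000717), and Stc2, an inhibitor of that protease, rose by 2.28 ± 0.47 (0.00267). Both calls held on omission of each single sample. Stc2 was dim in wild type, at 4.33 to 4.94, below the sample medians there of 5.88 to 5.92. With losartan Pappa fell by 1.06 ± 0.30 (0.0439), a call lost on omission of 5 of 6 samples, after median centring (0.0569) or quantile normalization (0.0579), with array weights (0.0526) and with the replicate number as a block (0.0635). With metformin Pappa was at 0.09 ± 0.30 against Alport vehicle (0.924) and 1.87 ± 0.30 above wild type (0.00253). The drugs differed in Pappa by 1.15 ± 0.30 (0.291), which did not pass.

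In the growth hormone pathway, which drives Igf1 transcription, 1 of 6 genes rose and 1 fell in Alport vehicle. Over all probe sets 8.43% were called higher and 7.71% lower, and with so few genes nothing is read from these counts. The growth hormone receptor Ghr fell by 0.84 ± 0.19 (limma adjusted p = 0.00506), and Socs2, a feedback inhibitor of that receptor, rose by 1.45 ± 0.28 (0.00178). With losartan Ghr rose by 0.68 ± 0.19 (0.034) and Socs2 fell by 1.02 ± 0.28 (0.0338), calls lost on omission of 5 and 4 of 6 samples. The rise of Ghr was also lost after quantile normalization and in a fit of only these groups. With metformin neither passed, at 0.41 ± 0.19 and -0.28 ± 0.28. Among the receptors and adaptors, 1 of 7 rose and 3 fell in Alport vehicle, beside the same 8.43% and 7.71%. The insulin receptor-related receptor Insrr fell by 1.79 ± 0.23 (5.97e-05) and was also lower than in wild type with losartan (-1.48 ± 0.23, 0.0058) and metformin (-1.47 ± 0.23, 0.00167). The insulin receptor Insr fell by 0.61 ± 0.17 (0.025) and the docking protein Irs1 by 0.79 ± 0.25 (0.0397), calls lost on omission of 4 of 6 samples each and in a fit of only these groups. Insr also lost its call after quantile normalization, and Irs1 with the replicate number as a block (0.0504). The adaptor Shc1 rose by 0.73 ± 0.19 (0.0135), lost on omission of 2 of 6.

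Downstream, of 14 measured genes listed under phosphoinositide 3-kinase, Akt and FoxO, 3 rose and 3 fell in Alport vehicle. Of all probe sets 8.43% were called higher and 7.71% lower there. The 14 include Pdk1, which encodes a pyruvate dehydrogenase kinase and does not belong to this role, unlike Pdpk1. It was not among the called genes (log2 -0.10 ± 0.20). The kinase gene Akt1 rose by 1.10 ± 0.19 (limma adjusted p = 0.000677), and the growth kinase Mtor fell by 1.39 ± 0.21 (0.000243). The regulatory subunits Pik3r1 and Pik3r3 rose by 1.01 ± 0.26 (0.0121) and 1.04 ± 0.26 (0.0124), with calls lost on omission of 2 and 1 of 6 samples. With losartan Akt1 fell by 0.78 ± 0.19 (0.0183), lost on omission of 4 of 6 samples. The transcription factor gene Foxo4 was the single gene of the list that rose with metformin, by 0.73 ± 0.18 (0.0318, lost on omission of 5 of 6 and in a fit of only these groups). It rose with losartan as well, by 0.79 ± 0.18 (0.0153, lost on omission of 2 of 6), and was named after its values were seen. Foxo4 was dim, at 4.86 to 5.98 over the 12 samples, where the sample medians ran from 5.88 to 6.065.

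**Figure D4:**
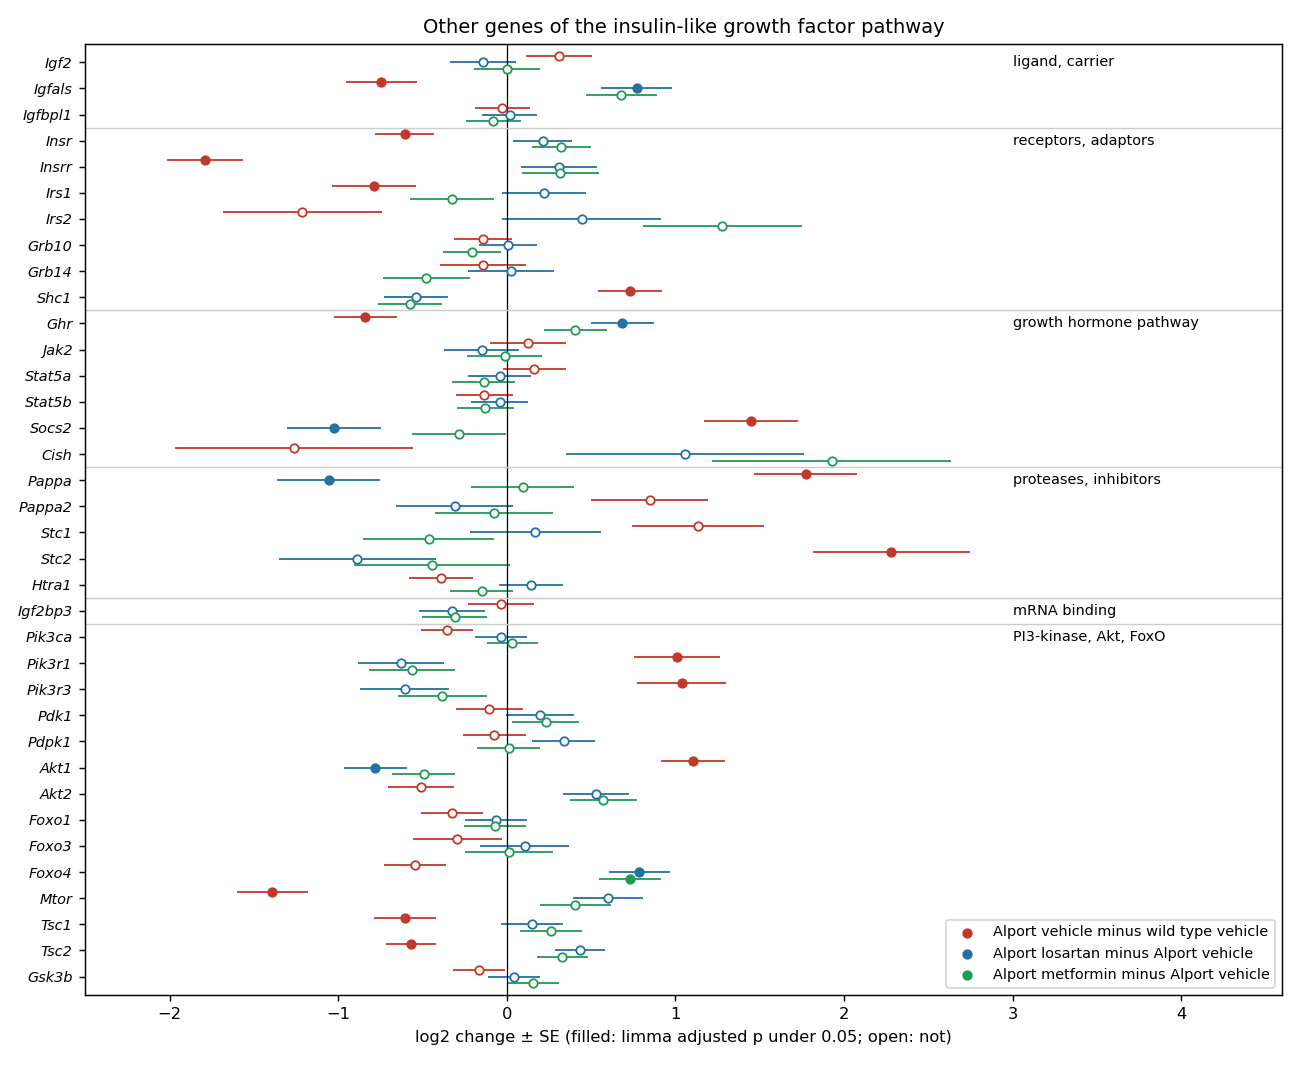
Log2 change with its SE (horizontal axis) of 36 other genes of the pathway, grouped by role, in Alport vehicle against wild type (red) and in losartan (blue) and metformin (green) against Alport vehicle, with filled points where the limma adjusted p was under 0.05. Pappa and Stc2 rose in Alport vehicle (1.77 and 2.28), and Insrr and Mtor fell (-1.79 and -1.39). Pdk1, drawn with the Akt genes, encodes a pyruvate dehydrogenase kinase and lies outside that role.

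The 4 members with the widest spread were each set beside the 3 named genes whose profile over the 12 samples was closest, by the root mean square (RMS) difference of log2 values after each gene's own mean was subtracted. This is a description with no test, and shared peaks or orders of groups follow from how the genes were chosen. For Igf1, with an SD of 0.80 over the samples, they were Rhoj (RMS 0.19), Prkcb (0.20) and 9930111J21Rik1 (0.23). For Igfbp3, with an SD of 0.93, they were Cyp4b1-ps2 (0.33), Gys2 (0.34) and Anxa13 (0.40). The group means of Cyp4b1-ps2 were 12.39 in wild type, 10.35 in Alport vehicle, 11.57 with losartan and 10.51 with metformin, the order of groups that Igfbp3 had apart from its last pair. For Igfbp2, with an SD of 1.39, they were Psca (0.52), Muc20 (0.60) and Slc14a1 (0.67). Each of these was highest in Alport vehicle sample 3, at 10.47, 11.81 and 9.08. For Igfbp1, with an SD of 0.61, the nearest were farther in proportion: Cdk2ap2 (0.36), Rarres2 (0.36) and Ropn1 (0.37).

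**Figure D5:**
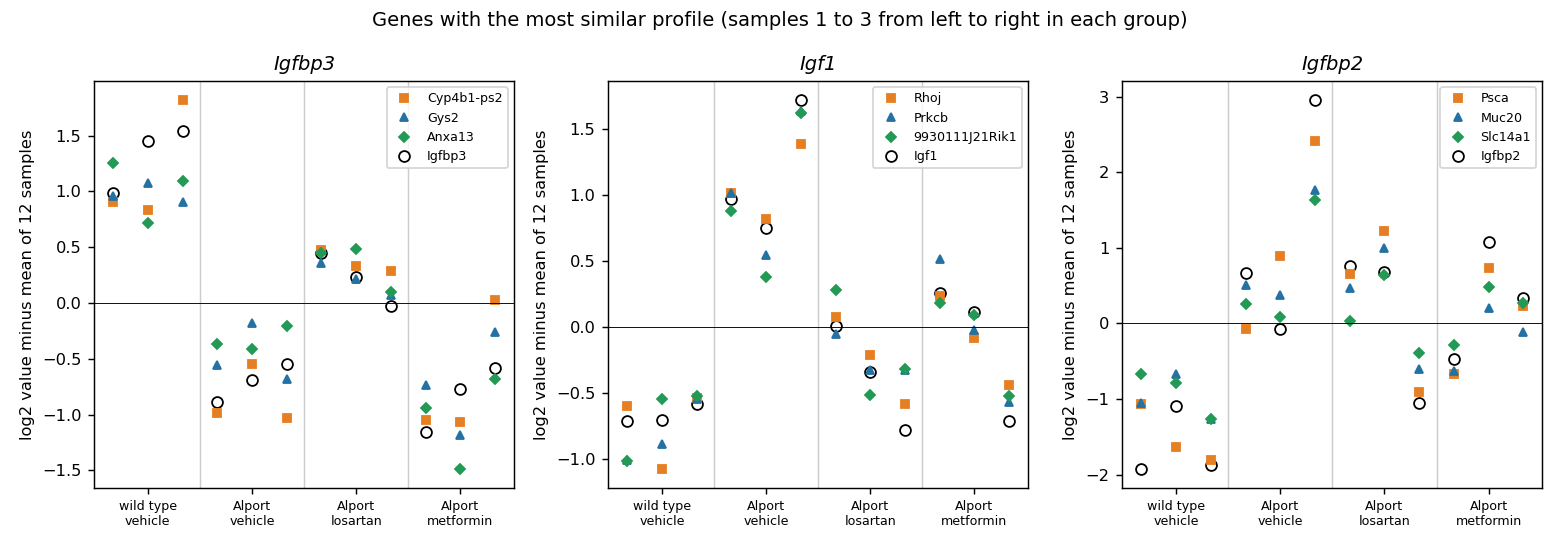
Log2 value minus the mean of the 12 samples (vertical axis) for Igfbp3, Igf1 and Igfbp2 (open circles) and the 3 genes nearest to each (filled symbols), with samples 1 to 3 from left to right in each group. The Igf1 panel has the closest points (RMS 0.19 to 0.23), and in the Igfbp2 panel all 4 genes peak in Alport vehicle sample 3. The genes were chosen for likeness over these samples, so the shared peak is no separate finding.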

How the data were processed

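Whole-kidney RNA was measured on Clariom S arrays, 1 per sample. The authors deposited 1 log2 value per probe set and sample, 22206 probe sets with 0 missing values. The log2 scale was read from the values. Per the submitters' processing notes the software was Transcriptome Analysis Console 4.0. How background, normalization and probe summary were handled: not given in the sources used here. Platform annotation, updated through Entrez identifiers, named 19572 probe sets with 1 symbol, 0 with several and left 2634 unnamed. RefSeq tables of GRCm38.p6 gave promoter sequences and neighbours.

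A mean per title group was fitted to all 12 samples with limma 3.58.1 (R 4.3.3, lmFit and eBayes, 8 residual degrees of freedom) and tested, two-sided, in 6 comparisons. Precision is limited by the number of arrays: the median SE of a log2 change was 0.20. The fit was tested on simulated data. The 10 members and all lists were chosen with earlier results of these data known. All members are named, and from the pathway list the called genes of each role in Alport against wild type, up to 4 by p, with Igf2, Ghr and Insr. Alternatives were median centring, quantile normalization, omission of the dimmest 33.3% of probe sets, a trended robust prior, array weights, only the groups compared, a replicate block and omission of each sample.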

Additional observations from a re-analysis of the deposited data

How the results depend on the processing

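Counts of members called were within 1.5 times of those reported, except as follows. In a fit of only the groups compared they were 3 of 10 for Alport vehicle against wild type (reported 5), 1 for metformin against vehicle (reported 2), 0 for metformin against losartan (reported 1, and 2 with a trended robust prior) and 2 for metformin against wild type (reported 1). Leaving out 1 sample gave 3 to 4 for Alport vehicle against wild type, 1 to 3 for losartan and 0 to 3 for metformin against vehicle, 0 to 2 for metformin against losartan, 0 to 2 for losartan against wild type and 1 to 1 for metformin against wild type.

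Changes that reversed sign were all uncalled. For Igf1r the change was 0.065 with losartan after median centring and -0.081 with metformin after quantile normalization, and Igfbp4 was at 0.038 between losartan and wild type after quantile normalization. Without 1 sample, against vehicle Igf1r ran from -0.098 to 0.062 with losartan and -0.042 to 0.083 with metformin, and with metformin Igfbp2 from -1.50 to 0.013, Igfbp3 from -0.255 to 0.035 and Igfbp4 from -0.26 to 0.045. Between the drugs Igf1r ran from -0.032 to 0.12, Igf2r from -0.033 to 0.16, Igfbp2 from -0.41 to 0.575 and Igfbp5 from -0.19 to 0.15. Against wild type Igf2r ran from -0.017 to 0.16, Igfbp4 from -0.082 to 0.068 and Igfbp6 from -0.0067 to 0.49 under losartan, and Igfbp5 from -0.03 to 0.305 with metformin. The cause was not tested.

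Over all probe sets, median centring moved the median change of Alport vehicle against wild type from -0.03 to -0.17. It moved the share of calls that were higher from 52.2% to 33.8% there, from 48.0% to 63.1% with losartan, from 54.0% to 68.5% with metformin and from 64.5% to 51.4% for metformin against wild type. Calls fell to 410 from 1096 for metformin against vehicle in a fit of only those groups. Without 1 sample they ran from 716 to 2073 for losartan (reported 1755), 266 to 1320 for metformin, 5 to 91 for metformin against losartan (reported 10, and 3 to 17 under the other settings), 37 to 62 for losartan against wild type (reported 122, and up to 285 under the others) and 346 to 1019 for metformin against wild type (reported 928).

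With the replicate number as a block the members called were 4, 2, 2, 1, 2 and 1 in the order above, and of the members' calls that of Igf1r was lost. Of the pathway list's calls, the block ended those of Irs1 (0.0504) and Tsc1 (0.0513) in Alport vehicle against wild type and of Pappa with losartan (0.0635). Deviations of same-numbered samples from their group means correlated at -0.14 to 0.078 in 18 pairs, so the numbers were not taken to pair samples.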
